A study of Mus musculus with 8 samples.

Results

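The miR-192, miR-194 and miR-215 family was followed in kidney RNA of CD-1 mice, an outbred strain, given tacrolimus or physiological serum. Tacrolimus is a calcineurin inhibitor used against transplant rejection, and injury to the kidney is a known adverse effect of it. The family was taken as 5 mature miRNAs, mmu-miR-192-5p, mmu-miR-192-3p, mmu-miR-194-5p, mmu-miR-194-2-3p and mmu-miR-215-5p (the species prefix is left out below), chosen by name among the 1023 mouse miRNAs on the array. They were read by 10 of its 2645 probes. The 4 tacrolimus (TAC) samples came from mice treated with 1 mg/kg per day for 28 days, and the 4 control (CTL) samples from mice given physiological serum. Every sample was total RNA of whole kidney, entered at 0.1 µg with an RNA integrity number of 9, and was hybridised to its own one-colour (Cy3) Agilent array. No genetic change is named for either group, and the sources used here give neither age nor sex. It is not stated that replicates were separate mice, so the p-values cover the spread between these 8 samples and no more, and that spread may be technical.

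miRNAs are short RNAs that lower the stability and translation of mRNAs, which they recognise mainly through the seed, bases 2 to 8 from the 5′ end. miR-192 and miR-194 are made together from one primary transcript, and miR-215 and a second copy of miR-194 from another. Both transcripts are known as epithelial ones, driven by hepatocyte nuclear factors, with high levels in liver, gut and kidney tubules. In kidney the family is known for its link to TGF-beta signalling and to the E-box repressors Zeb1 and Zeb2, and in tumour cells for its response to p53.

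The mature sequences are shown first because they decide which members the array can tell apart. All 7 mature names of the 4 hairpins matched RefSeq (GRCm38.p6), and all 14 probes matched their mature miRNA exactly. Capitals mark the seed.
miR-192-5p: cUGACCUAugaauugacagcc
miR-215-5p: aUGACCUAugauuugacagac
miR-192-3p: cUGCCAAUuccauaggucacag
miR-194-5p: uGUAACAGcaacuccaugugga
miR-194-2-3p: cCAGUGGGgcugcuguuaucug

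miR-192-5p and miR-215-5p had the same seed, which no other of the 1679 mature names in the RefSeq table carried. Counted from the 5′ end, they differed by C1A, A12U and C20A, with the base of miR-192-5p first, and were identical at 18 of 21 positions. The seeds of miR-194-5p and miR-192-3p were carried by no other name (0 for each). The Mir194-2 and Mir192 hairpins lay 115 bases apart on the plus strand at chr19:6264643-6264932 (GRCm38.p6), outside any other annotated gene, with Atg2a and Ehd1 as the nearest protein-coding genes. The Mir194-1 and Mir215 hairpins lay 195 bases apart on the plus strand at chr1:185313319-185313692, within Iars2, which encodes a mitochondrial isoleucyl-tRNA synthetase. Mature miR-194-5p has the same sequence from both hairpins, so its signal cannot be assigned to one of them. The 3′ arms of the 2 miR-194 hairpins differ by G8A, U19C, C20U and G22C, with the base of miR-194-2-3p first, and had probes of their own.

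The brighter probes of miR-192-5p and miR-215-5p are shown because they separate the paralogues by few bases. Capitals mark the probe bases that do not pair with the other paralogue.
miR-192-5p probe: gGctgtcaaTtcataggtc
miR-215-5p probe: gTctgtcaaAtcataggt
The miR-192-5p probe covers bases 3 to 21 of its target and the miR-215-5p probe bases 4 to 21. Each holds 2 bases that mismatch the paralogue, since the difference at base 1 lies outside both probes. The miR-215-5p probes gave no spot above background on arrays where every miR-192-5p spot was above it, so binding of miR-192-5p to them was not detectable. How far the miR-192-5p probes bind miR-215-5p was not tested.

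All 8 arrays lay on 1 slide and were read in 1 scan, with 147 to 220 miRNAs detected per array. Detection of a probe on an array required the scanner software to call 0.5 or more of the spots kept well above background. TAC arrays filled row 2 of the slide and CTL arrays row 1, so row and treatment cannot be told apart. TAC replicate 4 stood apart, with 1 of 8 quality metrics out of range, the largest SD of negative controls (20.01, against 4.45 to 10.5 on the other arrays) and the fewest detected miRNAs. The lowest signal of a detected probe was 88.98 intensity units on that array, 23.4 to 32.7 on the other TAC arrays and 29.1 to 55.1 on the CTL arrays. Signals are given below on a log2 scale on which 0 is the array's 75th percentile over probes seen on every array, with a floor of -5.96, and differences are TAC minus CTL. The 5 listed tubule miRNAs (miR-192-5p, miR-194-5p, miR-204-5p, miR-30a-5p and miR-200b-3p) were all detected in enough arrays to be tested. This is no independent check of the tissue label. The list holds members of the family and was written with earlier results of these data known. Both liver markers, arms of miR-122, were detected on 0 arrays.

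Detection differed sharply within the family. Both probes of miR-192-5p and both of miR-194-5p were above background in every kept spot on every array, which came to 313 of 313 and 297 of 297 spots. The arms encoded only by the chromosome 1 hairpins, miR-215-5p, miR-215-3p and miR-194-1-3p, were above background in 0 of 281, 0 of 293 and 0 of 286 kept spots. The 3′ arms miR-192-3p and miR-194-2-3p came between these extremes. Each miRNA was therefore read against its own background, and signals of different probes are not set against each other.

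**Figure D1:**
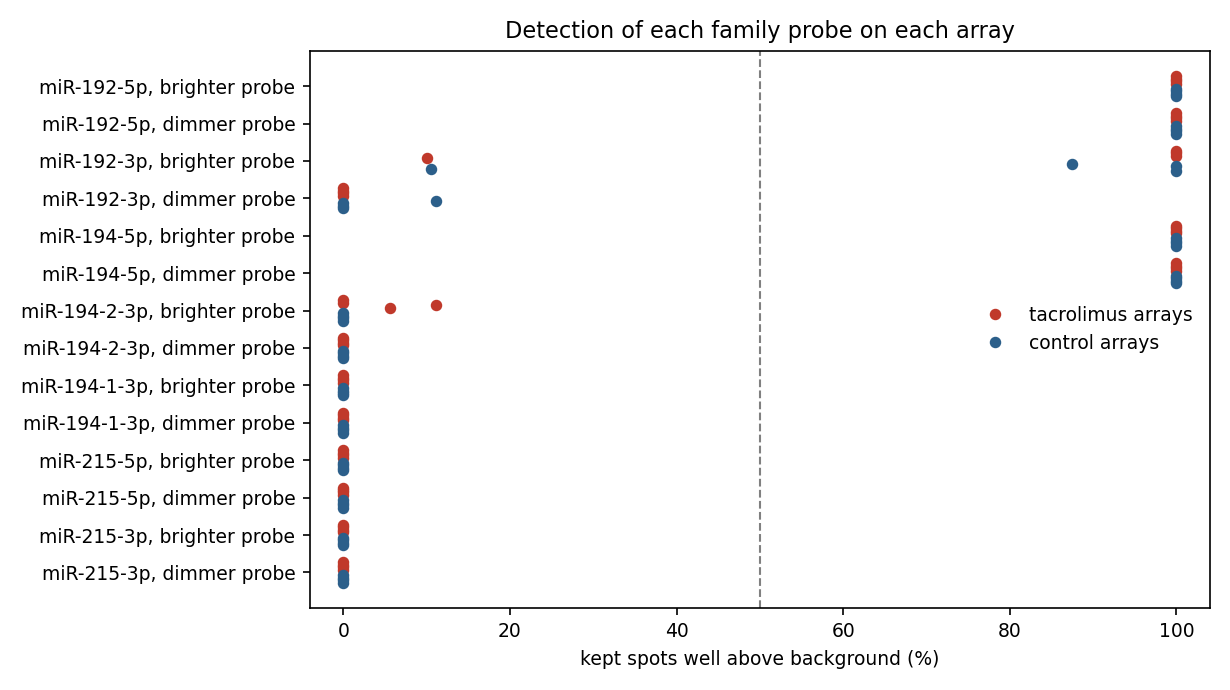
Share of kept spots well above background (percent, horizontal axis) for each of the 14 probes of the family's hairpins, 1 point per array, tacrolimus arrays above control arrays in each row. The dashed line is the 50% needed for detection, and the probes of miR-192-5p and miR-194-5p sit at 100% on all 8 arrays while those of miR-215-5p, miR-215-3p and miR-194-1-3p sit at 0%.

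miR-215-5p, the seed paralogue of miR-192-5p, gave no signal above background in either group. Its brighter probe read -2.05, -1.31, 0.979 and -3.64 intensity units on TAC arrays 1 to 4, against -0.228, -3.73, 1.64 and -3.84 on CTL arrays 1 to 4, after the software's background subtraction. Values on both sides of 0 are what a spot without signal gives after that step. Both probes together were above background in 0 of 144 TAC spots and 0 of 137 CTL spots. On the same arrays every kept spot of the miR-192-5p probes, which share all but 2 bases with them over the same stretch, was above background. miR-215-5p was not detectable on these arrays in either group, and no fold change is given for it.

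miR-194-2-3p, the other arm of the Mir194-2 hairpin, was not well above background on any array by the rule used here (0 of 8). Before scaling, its brighter probe read 17.9, 18.1, 20.05 and 35.9 intensity units on the TAC arrays, against 15.8, 17.5, 10.4 and 16.9 on the CTL arrays. All 4 TAC values were above all 4 CTL values, but with no scaling the median difference of all tested miRNAs was itself 0.19. After scaling, the probe was at the floor on 7 of the 8 arrays, so the groups were not apart. Every one of the unscaled values lay below the lowest signal of any detected probe on its own array. Of its kept spots, 3 of 144 were above background on the TAC arrays and 0 of 148 on the CTL arrays. The scanner software's own gene-level call, a different rule, listed it as detected on TAC replicates 2 and 3, with total gene signals of 7.06 and 7.80, and on 0 CTL arrays. No fold change is given, because the probe did not meet the detection rule in either group.

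The 3 members that could be tested had differences of 0.13 to 0.16 on the log2 scale, and none of them passed the test (0 of 3, and 0 of the 5 members in all). Over all 194 tested miRNAs, 6 passed (3.09%), each higher in TAC, by limma with Benjamini-Hochberg adjustment and a threshold of 0.05. Each of the 6 had a limma adjusted p of 0.0478, just under the threshold. That count of 6 was not stable, falling to 0 in 14 of 24 alternative settings. Among the 14 were the fits without TAC replicate 1, TAC replicate 4, CTL replicate 1 or CTL replicate 2. The total gene signal and the authors' table, both among the 14, hold the same values. Scaling to all probes, also among them, used probes of which only 9.60% to 15.2% were detected per array. The median difference was 0.14 for the 3 members and 0.04 for all tested miRNAs, of which 115 were above 0. The TAC and CTL arrays of each of the 3 overlapped, so 0 of 3 had groups apart, against 20 of 194 of all tested miRNAs (10.3%). At an unadjusted p under 0.05 the members again numbered 0 of 3, against 30 of 194 (15.5%).

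miR-192-5p, the guide arm of Mir192, was above background in every spot. Its brighter probe had log2 signals of 1.71, 1.69, 1.90 and 1.94 on TAC arrays 1 to 4, against 1.64, 1.75, 1.68 and 1.62 on CTL arrays 1 to 4. TAC replicates 3 and 4 lay above every CTL array, and TAC replicates 1 and 2 lay below CTL replicate 2. The means were 1.81 ± 0.13 in TAC and 1.67 ± 0.06 in CTL (SD, n = 4 each). The difference was 0.13 (SE 0.0775), a fold change of 1.10 with a 95% interval of 0.972 to 1.24, and the limma adjusted p was 0.468. Before scaling, the same probe read 7331, 7323, 6136 and 8469 intensity units on TAC arrays 1 to 4, against 7878, 6454, 4590 and 5357 on CTL arrays 1 to 4. CTL replicate 1 was thus the second brightest of the 8 before scaling and among the lower ones after it. A larger difference was found for 45 of the 194 tested miRNAs (23.2%).

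The other probe of miR-192-5p, shorter by 1 base, gave nearly the same picture. It had log2 signals of 0.51, 0.44, 0.67 and 0.67 on TAC arrays 1 to 4, against 0.39, 0.51, 0.42 and 0.39 on CTL arrays 1 to 4. TAC replicate 2 again lay below CTL replicate 2. The difference of 0.15 did not pass limma over the 357 probes that met the same filter (adjusted p = 0.390). The spots of the brighter probe had a coefficient of variation of 3.47% to 7.38% within an array. The standard error of their mean was at most 0.0238 on the log2 scale, below the SD between arrays of either group.

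miR-194-5p, the guide arm of both miR-194 hairpins, was likewise well detected on every array. Its brighter probe had log2 signals of 0.50, 0.39, 0.59 and 0.58 on TAC arrays 1 to 4, against 0.29, 0.51, 0.31 and 0.39 on CTL arrays 1 to 4. TAC replicate 2 was the lowest TAC array and CTL replicate 2 the highest CTL array, and all 4 TAC arrays lay above 3 of the 4 CTL arrays. The means were 0.52 ± 0.09 in TAC and 0.38 ± 0.10 in CTL (SD, n = 4 each). The difference was 0.14 (SE 0.0759), a fold change of 1.10 with a 95% interval of 0.980 to 1.24, and the limma adjusted p was 0.442. Before scaling, the probe read 3162, 2985, 2490 and 3305 intensity units on TAC arrays 1 to 4, against 3094, 2717, 1779 and 2278 on CTL arrays 1 to 4. CTL replicate 3 was the dimmest array for it, as for miR-192-5p. Its spots had a coefficient of variation of 1.51% to 5.70%. Its other probe, shorter by 1 base, differed by 0.10 (adjusted p = 0.641 over the 357 probes). A larger difference than that of the brighter probe was found for 41 of the 194 tested miRNAs (21.1%).

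miR-192-3p, the 3′ arm of Mir192, was close to the detection limit. Its brighter probe had log2 signals of -5.12, -5.21, -4.94 and -4.97 on TAC arrays 1 to 4, against -5.29, -5.09, -5.26 and -5.23 on CTL arrays 1 to 4. The probe was detected on 3 arrays of each group. On TAC replicate 4, 2 of 20 kept spots were above background, and on CTL replicate 3, 2 of 19. Before scaling, it read 64.2, 61.3, 53.7 and 70.3 intensity units on TAC arrays 1 to 4, against 64.6, 56.2, 37.4 and 46.3 on CTL arrays 1 to 4, and its values on TAC replicate 4 and CTL replicate 3 were below the lowest signal of a detected probe there. The means were -5.06 ± 0.13 in TAC and -5.22 ± 0.09 in CTL (SD, n = 4 each). The difference was 0.16 (SE 0.0822), a fold change of 1.11 with a 95% interval of 0.979 to 1.27, and the limma adjusted p was 0.440. Its other probe was at the floor on all 8 arrays, so the value rests on 1 probe.

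**Figure D2:**
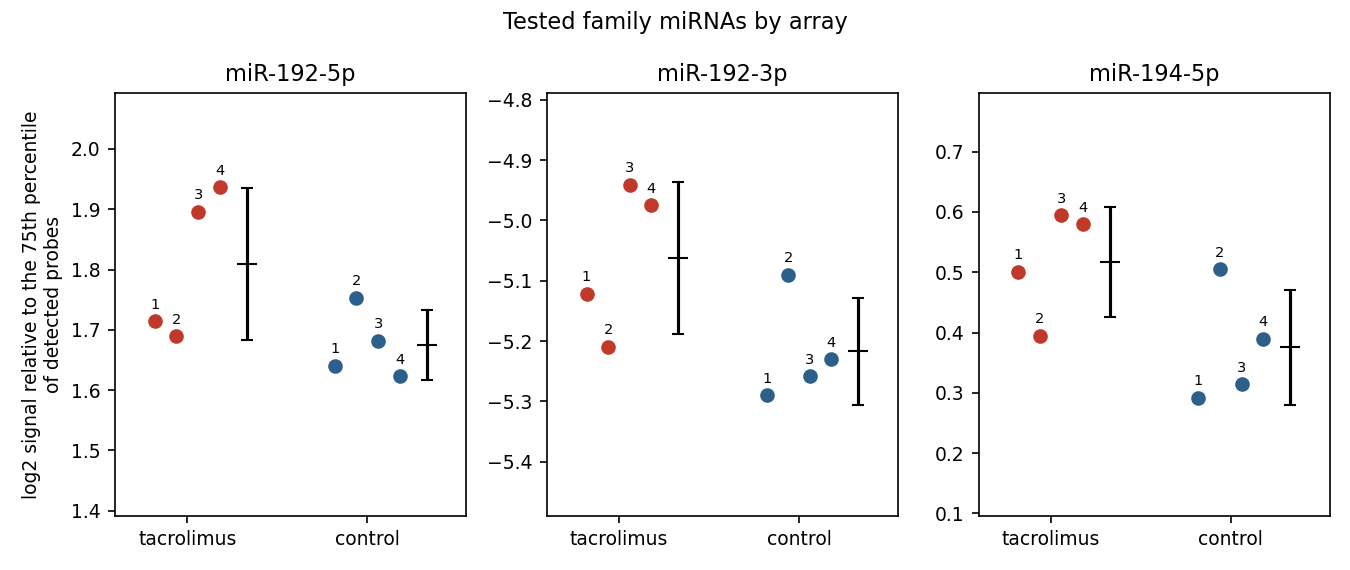
Log2 signal of the brighter probe of each tested member, relative to the 75th percentile of detected probes, with 1 point per array, numbered by replicate, and the mean and SD of 4 arrays in black beside it. The vertical axes cover the same span in each panel, and in each panel tacrolimus replicate 2 lies below control replicate 2 while tacrolimus replicates 3 and 4 lie above all 4 control arrays.

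The 3 intervals ran from 0.972 to 1.24-fold for miR-192-5p, 0.980 to 1.24-fold for miR-194-5p and 0.979 to 1.27-fold for miR-192-3p. They cover the spread between these arrays in the reported setting, not the choice of scaling or the slide row. Without CTL replicate 1 and TAC replicate 4, and with the scaling probes chosen anew as given below, the differences of all 3 fell below these lower ends. A p above the threshold does not show that the levels were alike. In whole kidney, a change in the share of tubule cells and a change in miRNA per tubule cell cannot be told apart.

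**Figure D3:**
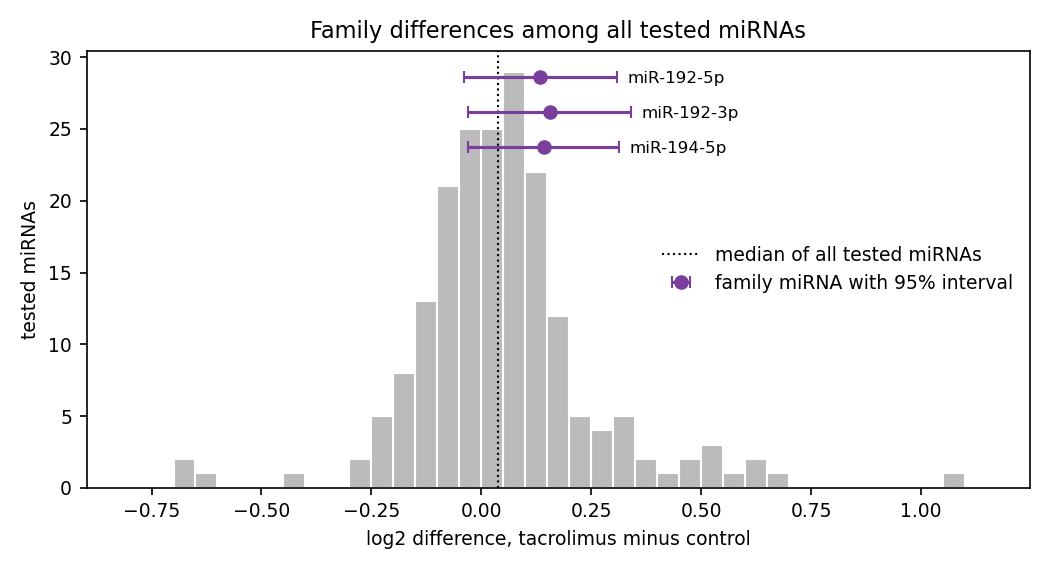
Number of tested miRNAs (vertical axis) by log2 difference, tacrolimus minus control, in bins of 0.05, with the 3 tested family members and their 95% intervals drawn above and the median of all 194 as a dotted line. The members lie at 0.13 to 0.16, to the right of the median of 0.04, and each interval includes 0.

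Arrays in the same column of the slide carry the same replicate number, so each column gives 1 TAC array and 1 CTL array. Within columns 1 to 4 the difference was 0.07, -0.06, 0.21 and 0.31 for miR-192-5p. It was 0.21, -0.11, 0.28 and 0.19 for miR-194-5p and 0.17, -0.12, 0.32 and 0.25 for miR-192-3p. For each of the 3 the difference was above 0 in columns 1, 3 and 4 and below 0 in column 2 (3 of 4 above 0).

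Leaving out TAC replicate 4, the noisiest array, left differences of 0.09 for miR-192-5p, 0.12 for miR-194-5p and 0.13 for miR-192-3p. Leaving out CTL replicate 1 with it, and choosing the scaling probes anew from the remaining 6 arrays, turned the signs to -0.06, -0.05 and -0.04 in the same order. With the reported scaling kept, the mean of TAC replicates 1 to 3 stayed above that of CTL replicates 2 to 4 for each of these miRNAs. In the setting scaled anew the median of all tested miRNAs was lower by 0.12, and relative to that median the members stood at 0.02, 0.03 and 0.04. Leaving out CTL replicate 3 in place of CTL replicate 1, again with scaling chosen anew, gave 0.04, 0.05 and 0.06. In none of these settings did a member pass the test.

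The 3 tested members varied together from array to array. As a measure of likeness, the SD over the 8 arrays of the log2 ratio between 2 miRNAs was taken, in which the scaling of an array cancels. It was 0.0594 for miR-194-5p with miR-192-5p, 0.0438 for miR-192-3p with miR-192-5p and 0.0308 for miR-192-3p with miR-194-5p. The median over all 18721 pairs of tested miRNAs was 0.219, and 129, 35 and 5 pairs had a smaller SD than these 3 pairs (0.689%, 0.187% and 0.0267%). For each member the other 2 were the 2 most alike of the 193 other tested miRNAs. The pairs share their RNA samples and arrays, and miR-192-5p and miR-192-3p share their hairpin, so these values are given as a description. miR-192-3p was not detected on TAC replicate 4 or CTL replicate 3. On the other arrays the standard error of its spot mean was 0.0216 to 0.0470 on the log2 scale. That range reaches above both SDs of its pairs, 0.0308 and 0.0438, so how close those pairs were cannot be read precisely.

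**Figure D4:**
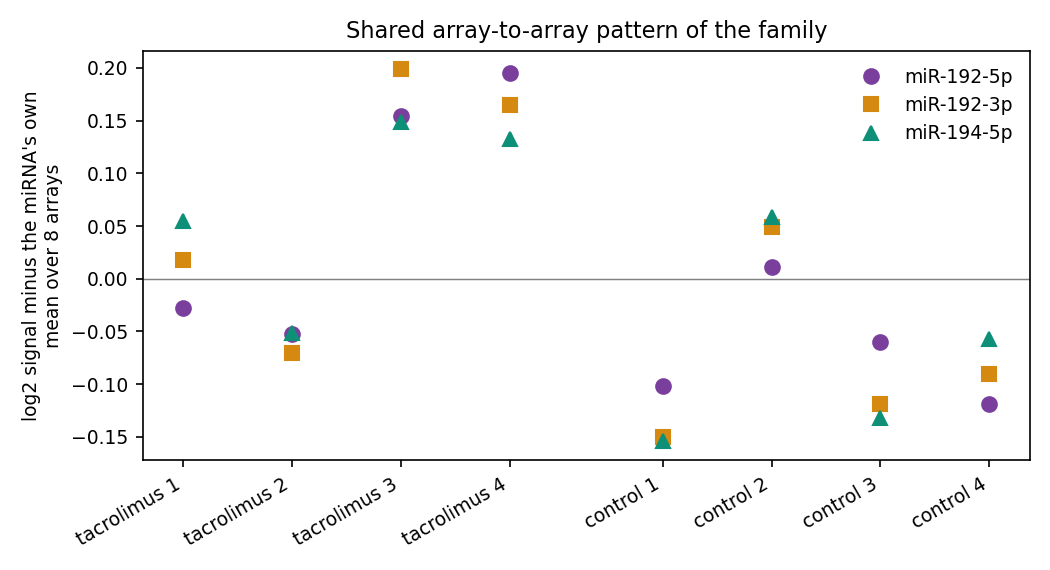
Log2 signal of each tested member minus its own mean over 8 arrays, 1 point per member and array, tacrolimus arrays on the left and control arrays on the right. The 3 members take nearly the same position on each array, high on tacrolimus replicates 3 and 4 and low on control replicates 1, 3 and 4.

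The next most alike miRNAs stood further off. To miR-192-5p they were miR-674-3p (SD of the log2 ratio 0.104), miR-143-3p (0.109), a smooth muscle miRNA, and miR-28a-5p (0.114). To miR-194-5p they were miR-28a-5p (0.107), miR-125b-5p (0.109) and miR-99a-5p (0.114). Their own differences were 0.19 for miR-674-3p, 0.03 for miR-143-3p, 0.18 for miR-28a-5p, 0.11 for miR-125b-5p and 0.02 for miR-99a-5p, with limma adjusted p of 0.355, 0.853, 0.273, 0.475 and 0.899. Over 14 other settings, chosen after seeing the data, miR-194-5p ranked 1 or 2 for miR-192-5p and miR-192-5p ranked 1 to 3 for miR-194-5p, with SDs of 0.0532 to 0.0988. The likeness of miR-192-3p was lost with normexp background correction, where it ranked 58 for miR-192-5p and 71 for miR-194-5p. With a floor raised 2 times it ranked 6 and 7 in the same order. That floor lay above its signal on every array except TAC replicate 3, so the setting could not test its likeness.

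The balance between the members was compared as a ratio within each array. The log2 ratio of miR-194-5p to miR-192-5p, centred on its mean over all arrays, was 0.00379 ± 0.0595 in TAC and -0.00379 ± 0.0683 in CTL (SD, n = 4 each), a difference of 0.00757. The log2 ratio of miR-192-3p to miR-192-5p, centred likewise, was 0.01 ± 0.04 in TAC and -0.01 ± 0.05 in CTL (SD, n = 4 each), a difference of 0.02.

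Other miRNAs known from kidney tubules and epithelia did not pass the test either (0 of 18 tested of 20 listed). Their median difference was -0.02, with 8 above 0, against 0.04 over all tested miRNAs. The 3 of smallest p were miR-204-5p, an epithelial miRNA (0.34, limma adjusted p = 0.290), miR-196a-5p, from the Hox clusters (0.14, 0.484), and miR-30e-5p, of the miR-30 family (-0.09, 0.578). Among miRNAs linked to p53, 0 of 7 tested of 10 listed passed, with a median difference of 0.03. Of those not tested, 2 were detected on 0 arrays and miR-34c-5p on 3 TAC and 0 CTL arrays. Those of smallest p were miR-34b-5p (0.31, limma adjusted p = 0.273), miR-107-3p (-0.11, 0.646) and miR-15a-5p (0.09, 0.646). Among miRNAs linked to TGF-beta signalling in kidney, 0 of 4 tested of 7 listed passed, with a median of -0.05. In that list miR-21a-5p, which is induced in injured tubules, differed by 0.45 (limma adjusted p = 0.104), and miR-29b-3p and miR-29a-3p, which repress collagen mRNAs, by -0.08 and -0.05 (0.657 and 0.741).

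Markers of other cells gave the following values. All 7 tested leukocyte miRNAs of 7 listed had differences above 0, with a median of 0.55, and their summed scaled signal ranged from 0.856 to 1.20 on TAC arrays and from 0.576 to 0.880 on CTL arrays. All 3 tested erythrocyte miRNAs of 4 listed had differences below 0, with a median of -0.67, and summed signals of 1.89 to 2.51 on TAC arrays and 2.10 to 5.84 on CTL arrays. Neither list held a miRNA that passed the test (0 of 7 and 0 of 3). The 6 endothelial and smooth muscle miRNAs had a median of -0.01. Of 3 miRNAs listed for gut and stomach, tissues known to carry the family, only miR-203-3p could be tested (0.13), while miR-31-5p was detected on 2 TAC and 0 CTL arrays and miR-375-3p on 0. None of the 5 striated muscle miRNAs could be tested. The part of these cells in the family's differences was not tested.

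**Figure D5:**
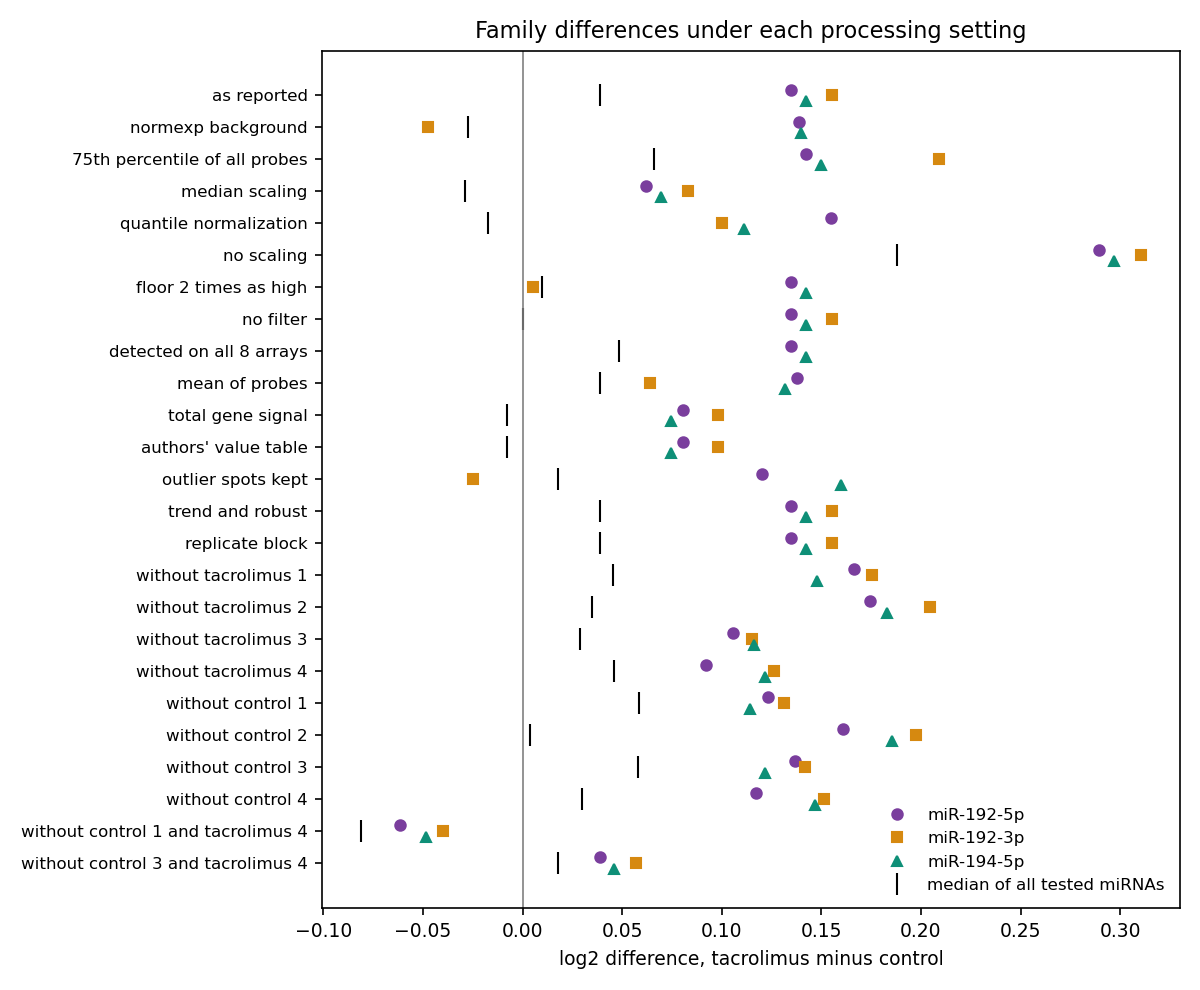
Log2 difference, tacrolimus minus control (horizontal axis), of the 3 tested members under the reported setting and 24 others, with the median of all tested miRNAs as a tick in each row. miR-192-5p and miR-194-5p lie right of the tick in all 24 alternatives, and miR-192-3p in 20 of the 23 in which it was tested. The alternatives are not independent. The trended robust variance and the replicate block cannot move the plotted values, and the total gene signal and the authors' table hold the same values.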

How the data were processed

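Kidney RNA of 4 TAC and 4 CTL samples was measured on one-colour arrays. The authors deposited each array's scanner output, which per the file headers came from version 10.7.3.1 of Feature Extraction. These are linear intensities per spot, from which that software had subtracted background, with no scaling between arrays. The authors' deposited value table equalled the software's total gene signal, an intensity, in 100% of cells (tolerance 1e-06), so its scale is linear and uncentred. Its median was 0.1 in every column. Of tools, the submitters' processing notes name limma alone, without its version. The kit named for labelling is one for mRNA, and the sources used here do not say how miRNA was labelled.

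Analysis used R 4.3.3 and limma 3.58.1. Non-uniform spots and population outliers, by the software's marks, were dropped (7.36% to 11.2% per array). Saturated spots numbered 0, and the rest of a probe's spots were averaged. Arrays were divided by their 75th percentile over the 252 probes detected on every array, floored and log2 transformed. A miRNA was represented by its brightest probe and tested where it was detected on 4 or more of 8 arrays, which left 194 and set 829 aside. limma (lmFit, eBayes, two-sided, no covariate, 9.16 degrees of freedom) was adjusted by Benjamini-Hochberg over these. Only the limma fit was tested on simulated data, with planted differences far larger than those of the members. Background, scaling, floor, filter and probe choice were not simulated. Precision is limited by how few arrays there are.

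The members, lists and marker miRNAs were chosen with earlier results of these data known. The text names the 5 members, the other arms of their hairpins, the 3 miRNAs most alike to miR-192-5p and to miR-194-5p, and up to 3 tested miRNAs of smallest p from each list. It also names marker miRNAs and, for its detection, the untested miR-34c-5p. Sequences and coordinates are from RefSeq (GRCm38.p6), while the array headers name mm9. Alternatives covered background, scaling, floor, filter, choice of probe, the authors' table, the variance model, a replicate block and left-out arrays.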

Additional observations from a re-analysis of the deposited data

Results flagged for a closer look

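Of 34 groups of 4 arrays examined, 17 named miRNAs in each of the 2 treatments, in 2 a single array stood far from the rest, and chance gives about 1 in 20, or 1.7 here. No member of the miR-192, miR-194 and miR-215 family was among them. For miR-196a-5p, TAC replicate 1 lay 0.28 below the mean of the other TAC arrays on the log2 scale (a difference of -0.28). For miR-30e-5p, TAC replicate 2 lay apart in the same way, with a difference of -0.17.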

How the results depend on the processing

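No member passed the test under any of the 24 alternatives (0 in each), 1 of which, leaving out CTL replicate 3 and TAC replicate 4, was chosen after seeing the data. At an unadjusted p under 0.05, 2 members were counted without TAC replicate 2 and 2 without CTL replicate 2, and 0 otherwise. miR-192-5p differed by -0.06 to 0.29 (limma adjusted p 0.325 to 0.995), miR-192-3p by -0.05 to 0.31 (0.393 to 0.995) and miR-194-5p by -0.05 to 0.30 (0.342 to 0.995). The sign turned without CTL replicate 1 and TAC replicate 4 (-0.0614, -0.0400 and -0.0483 in that order), and for miR-192-3p with normexp (-0.0472) and with outlier spots kept (-0.0249). With 1 array left out the differences were 0.0920 to 0.174 for miR-192-5p, 0.115 to 0.205 for miR-192-3p and 0.114 to 0.185 for miR-194-5p. These fits kept the scaling, floor and filter of all 8 arrays, unlike the settings with 2 arrays left out, so the stability of the 2 kinds cannot be compared. With no scaling the median of all tested miRNAs moved by 0.15 and the members stood at 0.29, 0.31 and 0.30. In the setting without CTL replicate 1 and TAC replicate 4, the scaling and the set of tested miRNAs were also made anew. With the reported scaling kept, the mean of TAC replicates 1 to 3 lay above that of CTL replicates 2 to 4 for each tested member. The cause of the turns in sign was not tested. The count over all miRNAs, 6, was 0 with scaling to all probes, no scaling, a raised floor, no filter, probes averaged, the software's total gene signal, the authors' deposited table, outlier spots kept, a trended robust variance, and the replicate block, with 2, 14, 27, 28, 29, 23, 23, 24, 31 and 31 at an unadjusted p under 0.05. It was 8 with median scaling and 7 with quantile normalization (6 shared in each), 5 with detection on all 8 arrays and 4 without CTL replicate 3 and TAC replicate 4. It was 1 with normexp and 1 without CTL replicate 1 and TAC replicate 4, and 0 to 6 when 1 array was left out, with 22 to 31 unadjusted. It was 0 without TAC replicates 1 or 4 or CTL replicates 1 or 2, 1 without CTL replicate 3, and 2 without TAC replicate 2 or CTL replicate 4. Deviations of same-numbered arrays correlated at 0.0994 to 0.135. Those of different-numbered arrays ranged more widely, from -0.331 (TAC replicate 4 with CTL replicate 1) to 0.385 (TAC replicate 4 with CTL replicate 3). Of the 4 TAC arrays, 1 correlated best with its own number. Same-numbered arrays also share a slide column. The reported fit did not treat same-numbered arrays as pairs. With the replicate block the members' adjusted p was 0.548 each. miR-194-2-3p did not meet the detection rule and miR-215-5p was at background, which limits any statement on them.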
